A study of Mus musculus with 35 samples.

Results

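Lung RNA taken 24 h after instillation of NRCWE-045 at 54 µg was compared with lung RNA of controls, on 10 of the 35 arrays of the series: 5 arrays titled for NRCWE-045 at 54 µg (replicates 8, 14, 28, 32 and 35) and 5 titled as controls at 0 µg (replicates 2, 7, 15, 29 and 30). The members were chosen by these titles alone. All animals were female C57BL/6 mice, 5 to 7 weeks old by the labels, and carried no transgene or deletion that the labels name. Treated mice received 1 instillation into the trachea, in 40 µl of suspension, of a nanomaterial known here by its code, and the series aimed to rank such materials by the pathway changes they cause. The labels give 0 µg for the controls and no vehicle. RNA came from random lung sections. Whether each array stands for its own mouse is not in the labels. A p-value here reflects only how far arrays scatter within groups, which may be partly technical. That scatter was pooled over all 35 arrays in 7 groups, not taken from the 10 arrays alone. The other groups, also of 5 arrays each, were NRCWE-045 at 18 µg and NRCWE-043 and NRCWE-044 at 18 and 54 µg.

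Particles that reach the alveoli are taken up by alveolar macrophages, and macrophages and epithelium release IL-1 family cytokines that act on neighbouring cells through NF-κB. Chemokines of the CC class then draw monocytes and those of the CXC class draw neutrophils or T cells, while lung cells themselves make acute phase proteins such as serum amyloid A. Macrophages and epithelium also remodel sterol metabolism under such stimuli, and 25-hydroxycholesterol, made by Ch25h and cleared by Cyp7b1, is one of the sterols that steer immune cells.

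Values are log2 ratios of lung RNA (Cy5) to a universal mouse reference RNA (Cy3) on 2-colour arrays, and a change is the difference of 2 group means on that log2 scale. A feature is a gene, read by its brightest probe, or a transcript with no matched gene symbol. It was called at an adjusted p under 0.05 in limma. Values by array are given in the order of replicates 2, 7, 15, 29 and 30 for the controls and 8, 14, 28, 32 and 35 for the treated arrays.

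On these 10 arrays, 42.9 to 59.3% of probes lay well above background in Cy5, and pairs of arrays correlated at 0.919 to 0.977. The number of arrays limits the precision. Lung markers were high: Sftpc, the surfactant protein C of alveolar type 2 cells, lay at 7.63 to 8.84 and Scgb1a1, the club cell secretory protein, at 7.52 to 8.62. Among the features called higher, control 29 and treated 35 often lay nearest the other group. Over all features, control 29 had a mean correlation of 0.965 with the treated arrays and 0.954 with the other controls. Treated 35 had a mean of 0.955 with the controls and 0.963 with the other treated arrays, so there it lay with its own group. Control 29 correlated best with treated 28 (0.977), which lay on the same slide, and carried the highest control value in 59 of the 74 features called higher. Treated 35 correlated best with control 15 (0.972) and carried the lowest treated value in 39 of those 74. The same counts were not made over all features. Control 2 also correlated best with a treated array (treated 28, 0.959), and treated 28 with control 29. That trait was therefore not particular to control 29 and treated 35. Whether control 29 and treated 35 carry their true labels could not be settled from the files. They were kept as labelled, and the group means and changes below include them. Heart muscle transcripts varied between samples: over 12 tested cardiac markers, the median distance from the control mean was 1.44 in control 2, 1.80 in control 29 and 1.19 in treated 32, and -1.31 to -0.48 in the other 7 arrays. In whole tissue, fewer cells of a type and less RNA per cell cannot be told apart.

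At 54 µg of NRCWE-045, 83 of 25534 features were called (0.325%): 74 were higher (0.29%) and 9 lower (0.0352%) than in controls. Genes with a symbol made up 77 of these 83. Inflammatory genes led the increases, with Saa3, Timp1, Ccl7, Cxcl10 and Ccl2 each at least 3.99-fold higher, and enzymes of cholesterol and oxysterol metabolism and DNA replication helicase subunits were also called higher. The genes called lower included Vldlr, the very low density lipoprotein receptor, and the pro-apoptotic genes Bmf and Bbc3. Changes were mostly moderate: 50 of the 83 reached 1.5-fold, 19 reached 2-fold, and the median called change was 0.71 among higher and -0.54 among lower features. The treated and control arrays did not overlap in 66 of the 83, and over all features 1.7% lay wholly above and 0.732% wholly below the controls.

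**Figure D1:**
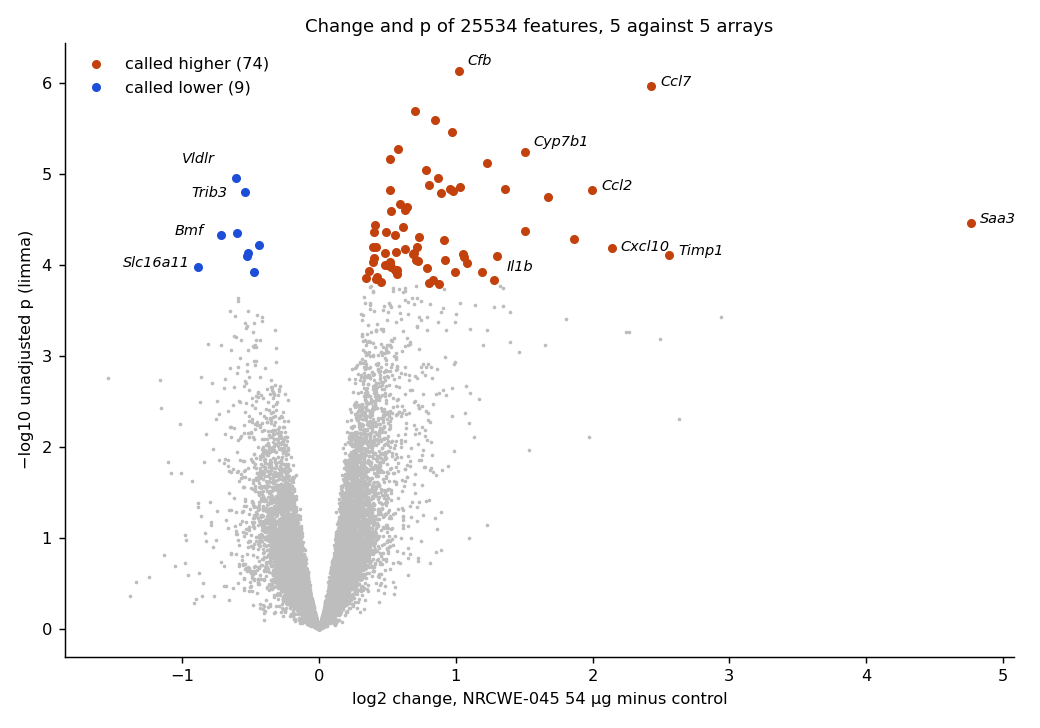
Each point is 1 of 25534 features; the x axis is the log2 change between NRCWE-045 at 54 µg and control and the y axis is -log10 of the unadjusted p from limma. The 74 features called higher (orange) reach a log2 change of 4.77 and the 9 called lower (blue) reach -0.88.

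The count of calls depended on the processing and on single arrays. It was 0 with median centring in place of loess, 158 and 273 with slide as a fixed or random block and 343 with array weights. Leaving out control 29 gave 221 calls and leaving out treated 35 gave 146. It was 0 without control 2, control 7, control 30 or treated 8, to 6 without treated 14, 13 without treated 32, 18 without control 15 and 33 without treated 28. With all arrays 2397 features (9.39%) had an unadjusted p under 0.05, and the refits without 1 array had 1888 to 2649. Within the 4 slides that held both groups, 83, 83, 82 and 83 of the 83 features had the called sign, which is no sign of stability because the features were called on these same arrays. Treated 35 lay on a slide without a control.

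**Figure D2:**
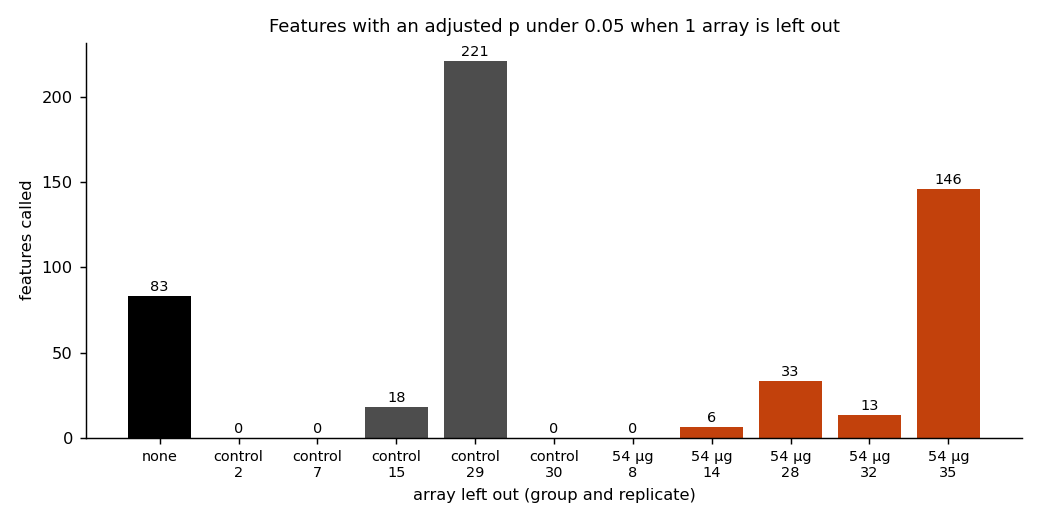
Bars give the number of features with an adjusted p under 0.05 with all 10 arrays (black) and when 1 control (grey) or 1 treated array (orange) is left out of the 35-array fit. Counts run from 0 to 221 around the 83 of the full set.

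Promoters are shown for 4 of the genes called higher whose windows held a motif searched, chosen for that after the matches were known; they let the sequence near the start be read beside the values that follow. Each line gives the 250 bases before a start listed in the RefSeq promoter table (GRCm38.p6), which need not be a gene's outermost start; the RefSeq span of Saa3 reaches further upstream than the start used. Letters run 5′ to 3′ on the gene's strand, with motif matches in capitals. The motifs were the NF-κB site by its usual degenerate consensus, a paired GAAA box (GAAA, any 2 bases, GAAA, the core of the interferon-stimulated response element), TCACNCCAC (a sterol response element) and TGACGTCA (a cyclic AMP response element), on both strands. In Saa3 (chr7:46715677-46715926, minus strand) the capitals mark the paired GAAA box and, nearer the start, TCACNCCAC in reverse.
Saa3: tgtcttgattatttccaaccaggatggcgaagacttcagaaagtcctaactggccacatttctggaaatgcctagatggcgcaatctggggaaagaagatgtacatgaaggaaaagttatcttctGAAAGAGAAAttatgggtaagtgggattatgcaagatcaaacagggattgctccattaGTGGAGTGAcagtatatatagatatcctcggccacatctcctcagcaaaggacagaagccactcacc
Cxcl10 (chr5:92348890-92349139, minus strand) held the paired GAAA box once and the NF-κB consensus at 2 places.
Cxcl10: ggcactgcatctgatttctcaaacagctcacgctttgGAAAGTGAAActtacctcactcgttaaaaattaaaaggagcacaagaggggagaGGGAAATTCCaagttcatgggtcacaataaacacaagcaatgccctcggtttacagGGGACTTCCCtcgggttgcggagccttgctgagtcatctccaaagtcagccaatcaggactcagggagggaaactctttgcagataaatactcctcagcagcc
Nfkb2 (chr19:46304487-46304736, plus strand) has several listed starts, and the one with the most matches held 3 to the NF-κB consensus, 2 of them overlapping.
Nfkb2: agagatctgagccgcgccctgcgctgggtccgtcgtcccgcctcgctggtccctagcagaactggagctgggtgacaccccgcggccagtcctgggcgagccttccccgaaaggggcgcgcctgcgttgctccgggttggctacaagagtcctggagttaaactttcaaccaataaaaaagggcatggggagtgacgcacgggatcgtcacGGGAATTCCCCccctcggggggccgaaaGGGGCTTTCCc
Ch25h (chr19:34475149-34475398, minus strand) held TGACGTCA.
Ch25h: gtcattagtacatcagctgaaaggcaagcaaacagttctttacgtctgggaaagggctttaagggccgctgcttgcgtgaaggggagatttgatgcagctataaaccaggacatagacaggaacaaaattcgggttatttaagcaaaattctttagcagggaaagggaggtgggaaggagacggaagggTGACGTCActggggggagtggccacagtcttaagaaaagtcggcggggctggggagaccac
Of 69 named genes called higher, 53 had a promoter in the table, and 5 of them (9.43%) held the NF-κB consensus, 7 (13.2%) the paired GAAA box, 1 (1.89%) TCACNCCAC and 3 (5.66%) TGACGTCA. Over all 27025 genes of the table these shares were 4.46%, 3.46%, 1.22% and 1.77%. A match is a description of letters, not evidence of a bound factor.

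Saa3, an acute phase apolipoprotein that inflamed tissue makes locally, had the largest change of all. It lay at -3.27, -3.73, -4.06, 1.31 and -3.11 in the controls and at 2.91, 4.65, 1.53, 2.47 and -0.58 in the treated arrays. Control 29 lay above treated 35, so the groups overlapped, and the other 4 controls lay below every treated array. The change was 4.77 (SE 0.99, adjusted p = 0.0324), or 27.2-fold, from -2.57 ± 2.20 (SD, n = 5) to 2.19 ± 1.92 (SD, n = 5). It was 5.74 without control 29, 5.46 without treated 35 and 6.43 without both, arrays picked from their values. Within slides it ran from 0.22 on the slide that holds control 29 to 8.71. Among 17 tested acute phase genes (of 20 listed) Saa3 was the one called; 11 had an unadjusted p under 0.05 in the higher direction (6.32% of all features) and 1 in the lower (3.06%), and their median change was 0.86 against 0.01 over all features. These shares of all features are also the background for the counts at that p in the lists that follow. Saa1, a serum amyloid that the liver also makes, changed by 2.27 (adjusted p = 0.0812), Lcn2, which binds bacterial siderophores, by 1.39 (0.066), and Orm2, a plasma glycoprotein, by 1.46. All 3 missed the threshold. Over 26 alternative settings Saa1 and Lcn2 were each called in 6.

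The CC chemokines with monocyte-attracting members were the list with the largest median change. Ccl7, a ligand of the monocyte receptor CCR2, lay at -3.77, -4.18, -4.30, -2.25 and -4.02 in the controls and at -0.89, -0.77, -1.68, -0.87 and -2.15 in the treated arrays. Those groups did not overlap, with control 29 and treated 35 closest to each other, and Ccl7 rose by 2.43 (SE 0.41, adjusted p = 0.0138). Ccl2, the main CCR2 ligand, lay at -4.46, -4.82, -5.42, -3.42 and -4.75 in the controls against -2.18, -2.01, -2.77, -2.47 and -3.46 in the treated arrays. The groups overlapped by control 29 and treated 35, and the rise was 2.00 (SE 0.39, adjusted p = 0.0197). Ccl12, another mouse CCR2 ligand, rose by 1.08 (SE 0.24, adjusted p = 0.0388), with controls at -0.05 to 0.80 and treated arrays at 1.09 to 1.61. Of 13 tested CC chemokines (16 listed) 3 were called higher (0.29% of all features) and 0 lower, and 11 had an unadjusted p under 0.05 in the higher direction (6.32%); the median change was 1.08. Among those not called were Ccl24, an eosinophil attractant, with a change of 2.49 (adjusted p = 0.0904), and Ccl17, which draws T helper cells, with 1.65.

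Cxcl10, which attracts activated T cells through CXCR3, lay at -1.69, -1.70, -1.95, -0.67 and -2.24 in the controls and at 1.08, 1.49, 0.03, 1.14 and -1.29 in the treated arrays. Treated 35 lay among the controls, and the other 4 treated arrays lay above all of them. It rose by 2.14 (SE 0.47, adjusted p = 0.0379). Of 13 tested CXC chemokines it was the one called. The neutrophil attractants Cxcl1 and Cxcl5 changed by 1.14 and 1.54 with adjusted p of 0.252 and 0.289, and the list's median was 0.21. Cxcl5 was well above background on 2 of the 5 controls. Among chemokine receptors 0 of 16 were called by limma and 3 had an unadjusted p under 0.05, all higher.

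Il1b, the secreted IL-1 cytokine, lay at 0.31, 1.22, 0.45, 1.36 and 0.69 in the controls and at 2.24, 2.00, 1.5, 2.67 and 2.13 in the treated arrays. Every treated array lay above every control, and the rise was 1.30 (SE 0.29, adjusted p = 0.0379). Osmr, the oncostatin M receptor, rose by 0.52 (SE 0.10, adjusted p = 0.0197), with controls at -0.44 to 0.05 and treated arrays at 0.20 to 0.37. These were the 2 members called of 22 tested in the IL-1, IL-6 and TNF axis; 9 had an unadjusted p under 0.05 in the higher direction (6.32% of all features) and 1 in the lower (3.06%). Il6 changed by 0.87 (adjusted p = 0.157) and was well above background on 1 of the 5 controls. Nfkb2, a subunit of the non-canonical NF-κB pathway, rose by 0.73 (SE 0.16, adjusted p = 0.0388), from -1.73 to -1.14 in the controls to -0.94 to -0.63 in the treated arrays. It was the one called of 15 NF-κB feedback and target genes (0.29% of all features were called higher). In that list 6 had an unadjusted p under 0.05 in the higher direction and 1 in the lower.

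Complement and matrix genes each had called members in lists whose medians lay near that of all features. Cfb, the factor B of the alternative complement pathway, lay at 3.78, 3.49, 3.63, 4.15 and 3.58 in the controls and at 4.71, 5.03, 4.71, 4.83 and 4.45 in the treated arrays. The groups were separate, and Cfb rose by 1.02 (SE 0.17, adjusted p = 0.0138). C3, the central component, rose by 1.19 (SE 0.27, adjusted p = 0.0415); control 29 at 3.60 lay above treated 35 at 3.00. The other 14 tested complement genes were not called. Changes in the list ran from -1.34 to 1.19, with 5 of the 16 below 0, and the median was 0.14. Timp1, an inhibitor of matrix metalloproteinases, lay at -2.49, -2.76, -3.03, -0.22 and -2.54 in the controls and at 0.54, 1.49, 0.21, 1.06 and -1.53 in the treated arrays. Control 29 and treated 35 again crossed, and Timp1 rose by 2.56 (SE 0.57, adjusted p = 0.0379). It was the one called of 27 matrix and protease genes, whose median change was 0.09.

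**Figure D3:**
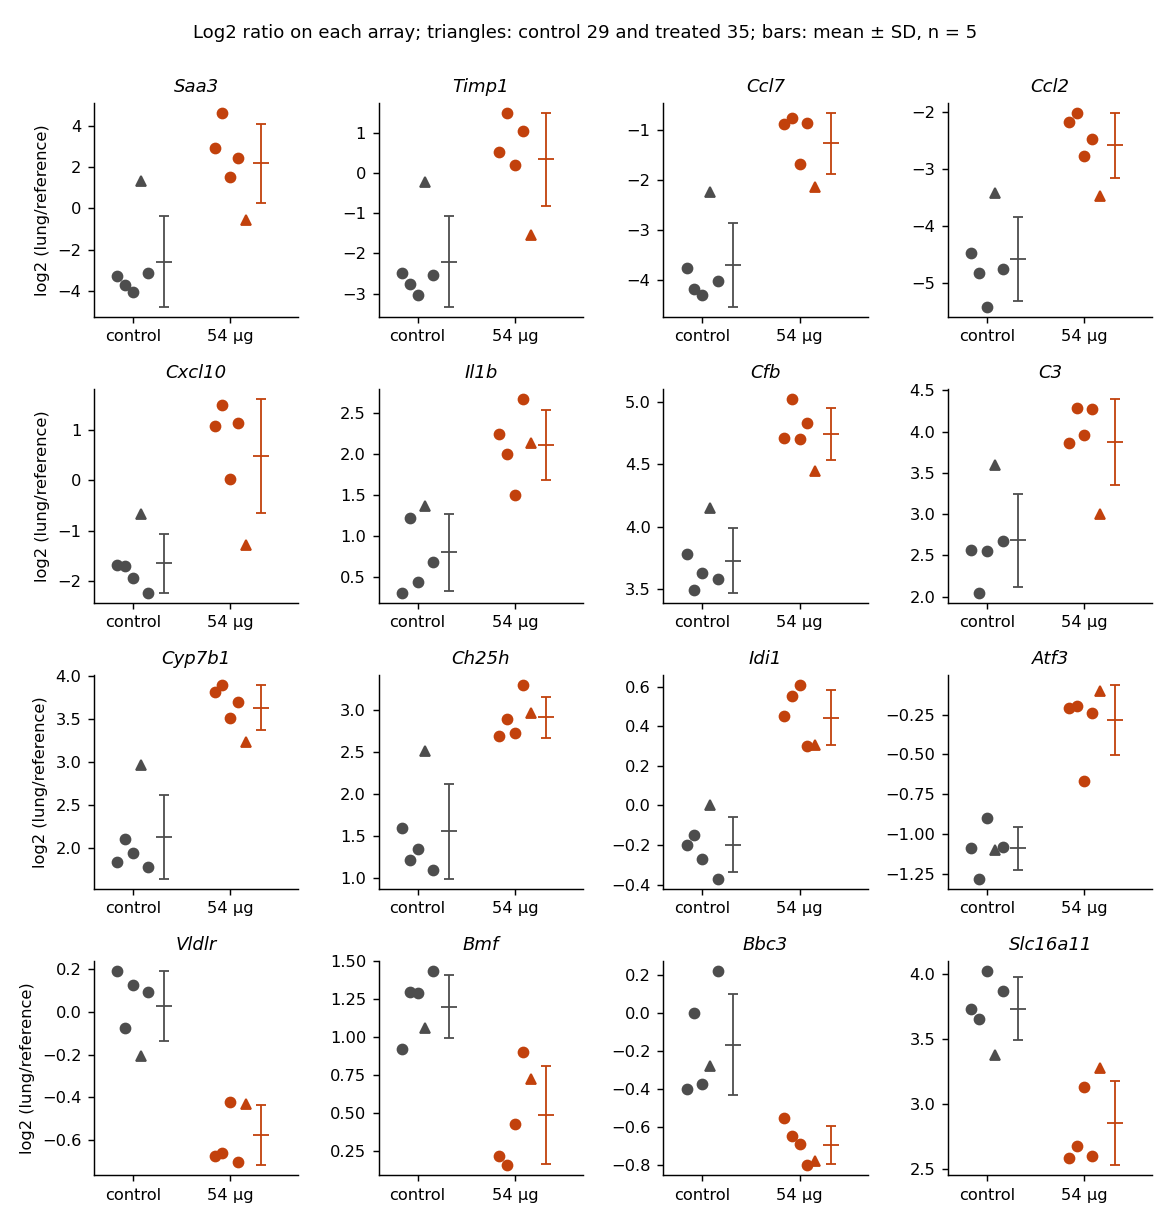
Log2 ratio to the reference of 16 genes on each array, controls in grey and NRCWE-045 at 54 µg in orange, with the mean ± SD (n = 5) beside the points; triangles are control 29 and treated 35. The triangles cross or nearly meet in Saa3, Timp1, Ccl7, Ccl2 and Cxcl10, while in Il1b, Idi1 and Atf3 every treated array lies above every control.

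Both enzymes of the 25-hydroxycholesterol route in the list were called higher. Ch25h, which makes 25-hydroxycholesterol, lay at 1.60, 1.21, 1.34, 2.51 and 1.09 in the controls and at 2.69, 2.90, 2.72, 3.30 and 2.96 in the treated arrays. Cyp7b1, the 7α-hydroxylase that acts on it, lay at 1.84, 2.10, 1.94, 2.97 and 1.77 against 3.81, 3.89, 3.51, 3.70 and 3.23. Neither pair of groups overlapped, although control 29 was the highest control in both. Ch25h rose by 1.36 (SE 0.27, adjusted p = 0.0197) and Cyp7b1 by 1.5 (SE 0.28, adjusted p = 0.0197). Gpr183, the receptor for the resulting dihydroxysterol, changed by 0.20 and was not called. In the same list of 16 genes Vldlr fell by 0.60 (SE 0.12, adjusted p = 0.0197), from 0.19, -0.08, 0.13, -0.20 and 0.09 in the controls to -0.67, -0.66, -0.42, -0.70 and -0.43 in the treated arrays, with no overlap. The cholesterol exporters Abca1 and Abcg1 changed by -0.62 and -0.36 and the lipoprotein genes Lpl and Apoe by -0.33 and -0.34; each had an unadjusted p under 0.05 and none was called.

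Cholesterol synthesis genes had small changes, nearly all above 0, and 2 of them were called higher. Idi1, the isopentenyl diphosphate isomerase, lay at -0.20, -0.15, -0.27, 0.00 and -0.37 in the controls and at 0.45, 0.55, 0.61, 0.30 and 0.31 in the treated arrays. All treated arrays lay above all controls, and Idi1 rose by 0.64 (SE 0.13, adjusted p = 0.0241). Within slides its change ran from 0.61 to 0.82, with the lowest on the slide that holds control 29. Mvd, the mevalonate diphosphate decarboxylase, rose by 0.57 (SE 0.13, adjusted p = 0.0415). Of 23 tested members (24 listed) these 2 were called, 17 had an unadjusted p under 0.05 in the higher direction and 0 in the lower, and the changes of 22 lay above 0 against 52.5% of all features. The median change was 0.36. Taken per array as the median distance of the members from the control mean, the list lay at -0.10 to 0.08 in the controls and at 0.36 to 0.41 in the treated arrays. Of the lists plotted by member, this one had the narrowest range over treated arrays.

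Stress and growth genes had few called members. Atf3, a transcription factor induced by many stresses, lay at -1.09, -1.28, -0.90, -1.10 and -1.08 in the controls and at -0.21, -0.20, -0.67, -0.24 and -0.10 in the treated arrays, and rose by 0.81 (SE 0.16, adjusted p = 0.0197). It was the one called of 22 immediate early and stress factors, of which 10 had an unadjusted p under 0.05, all higher. Egr1 and Nr4a1, which are induced within minutes of stimulation, changed by 1.11 and 1.34 without being called. Trib3, a pseudokinase induced when amino acids or the endoplasmic reticulum are under stress, fell by 0.54 (SE 0.11, adjusted p = 0.0197), from -2.69 to -2.46 in the controls to -3.24 to -2.78 in the treated arrays. In the unfolded protein response list 8 of 20 had an unadjusted p under 0.05 in the higher direction without being called, among them Sdf2l1, a chaperone cofactor, with a change of 0.91.

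A set of 3 subunits of the replicative helicase was called in the cell cycle list. Mcm3 rose by 0.87 (SE 0.21, adjusted p = 0.0495), Mcm6 by 0.83 (SE 0.19, adjusted p = 0.0468) and Mcm5 by 0.73 (SE 0.16, adjusted p = 0.035). Mcm5 lay at -2.09, -2.32, -2.25, -1.78 and -2.19 in the controls and at -1.42, -1.03, -1.51, -1.28 and -1.74 in the treated arrays, with treated 35 just above control 29. Mitotic members of the list were not called: Mki67 changed by -0.06, Top2a by 0.03 and Ccnb1 by -0.19, and the median of the 20 genes was 0.01. Of the 20, 6 had an unadjusted p under 0.05, all higher (6.32% of all features).

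Bmf and Bbc3, which encode BH3-only proteins that trigger apoptosis, were the 2 called of 21 p53 targets and BH3 genes. Over all features 0.0352% were called lower. In the list 4 had an unadjusted p under 0.05 in the lower direction and 0 in the higher, against 3.06% and 6.32% of all features. Bmf lay at 0.92, 1.30, 1.29, 1.06 and 1.44 in the controls and at 0.22, 0.15, 0.43, 0.90 and 0.72 in the treated arrays, and fell by 0.72 (SE 0.15, adjusted p = 0.0342). Bbc3 lay at -0.40, 0.00, -0.37, -0.28 and 0.22 against -0.55, -0.65, -0.69, -0.80 and -0.78, and fell by 0.53 (SE 0.12, adjusted p = 0.0379). Both pairs of groups were separate. The p53 targets Cdkn1a and Mdm2 changed by -0.61 and -0.01 and neither was called. Bnip3, a mitophagy receptor related to the BH3 family, fell by 0.60 (SE 0.13, adjusted p = 0.0341); its other probes changed by -0.42 and -0.39.

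The remaining named genes called lower were Slc16a11, a monocarboxylate transporter family member, Trnp1, a nuclear protein of neural progenitors, and Kcnk2, a background potassium channel. Slc16a11 lay at 3.73, 3.66, 4.03, 3.38 and 3.87 in the controls and at 2.58, 2.68, 3.13, 2.60 and 3.27 in the treated arrays, and fell by 0.88 (SE 0.20, adjusted p = 0.0402). Trnp1 fell by 0.52, while its other probe changed by -0.20. Kcnk2 was not well above background on any of the 5 treated arrays, and its level there was at least 1.25-fold lower (adjusted p = 0.0379). A pair of Ly6 genes, which encode small surface proteins of leukocytes, were called higher: Ly6i by 1.86 (adjusted p = 0.0353) and Ly6f by 1.68 (adjusted p = 0.0208), with control 29 at 2.33 and 2.09 and the other controls at 0.24 to 0.64 and 0.18 to 0.43. The Ly6 genes are a family of close copies, and cross-hybridisation between them was not tested.

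Further called genes were singled out after their values were seen. Thbs1, the matricellular protein thrombospondin-1, lay at -1.01, -0.88, -1.53, -0.34 and -1.10 in the controls and at 0.35, -0.12, 0.70, -0.12 and 0.46 in the treated arrays, and rose by 1.23 (SE 0.23, adjusted p = 0.0197). Csf2rb, the shared beta chain of the receptors for GM-CSF, IL-3 and IL-5, rose by 0.70, and Csf2rb2, a beta chain of the IL-3 receptor, by 0.63. Myd88, the adaptor of toll-like and IL-1 receptors, rose by 0.42, and Il18bp, the soluble inhibitor of IL-18, by 1.03. Mefv, which encodes the inflammasome protein pyrin, rose by 1.28, Lgals1, the lectin galectin-1, by 0.92, and Tfrc, the transferrin receptor, by 0.52. In each of these 8 genes the treated and control arrays did not overlap. The same held for 57 of the 74 features called higher, and 1.7% of all features lay wholly above the controls, so this was not particular to the 8.

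Interferon-stimulated genes gave no call, and all 23 tested of 25 listed had changes above 0. By limma 0 were called and 16 had an unadjusted p under 0.05, all higher (6.32% of all features); the median change was 0.51. Zbp1, a sensor of Z-form nucleic acid, changed by 1.22 (adjusted p = 0.0804), although its other probe changed by 0.29, and Irf7 and Oas1a by 0.83 and 1.09. Of the 19 with a promoter in the table, 10 held the paired GAAA box, among them Ifit1, Isg15 and Rsad2. Eif2ak2, an interferon-induced kinase outside that list and singled out after its value was seen, was called higher at 0.55. The list's distance from the control mean was -0.17 to 0.23 in the controls and 0.14 to 0.84 in the treated arrays.

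**Figure D4:**
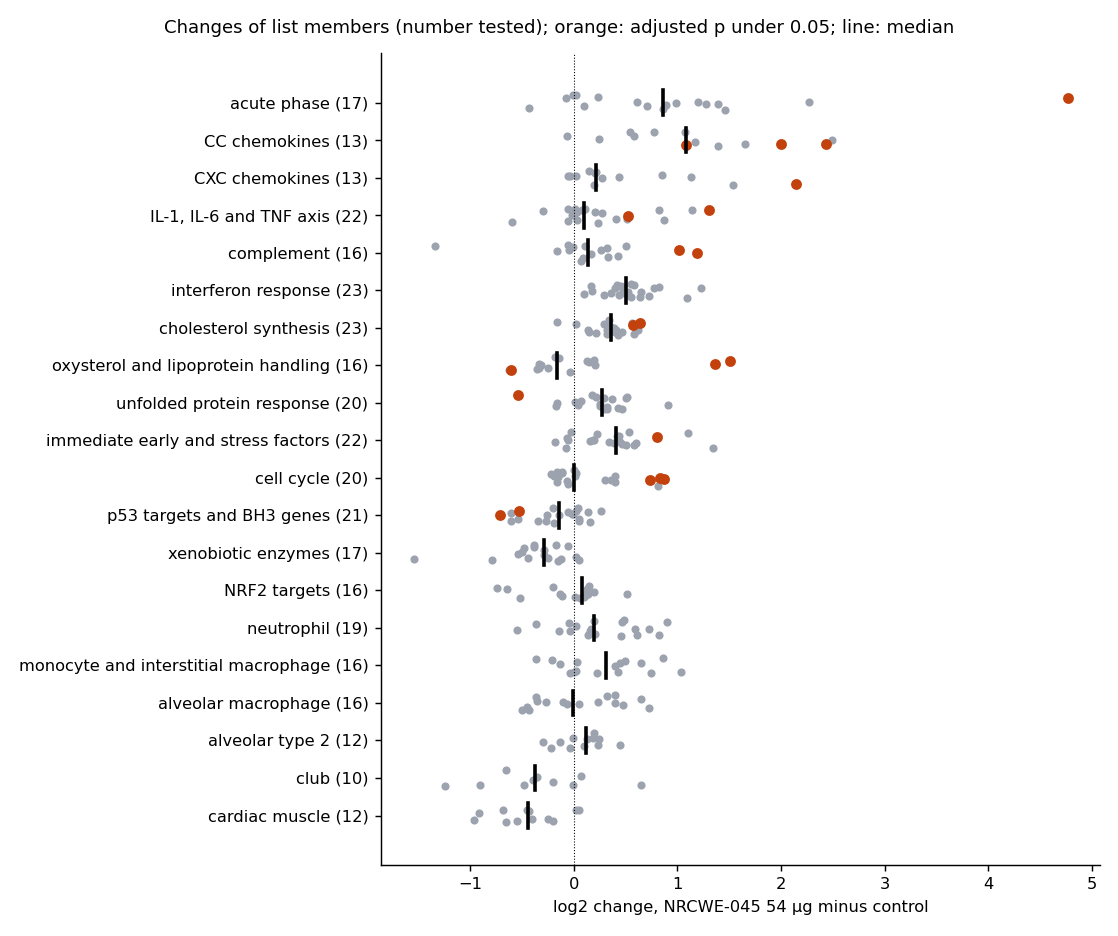
Each point is the log2 change of 1 list member at 54 µg of NRCWE-045 against control; orange points have an adjusted p under 0.05, bars mark list medians and the numbers tested stand beside the names. Cholesterol synthesis members cluster around 0.36, and acute phase genes spread up to 4.77.

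Antioxidant and xenobiotic genes gave no calls. Hmox1, the haem-degrading enzyme that many particles induce, lay at -3.33, -1.43, -4.07, -3.95 and -3.21 in the controls and at -3.67, -3.78, -4.11, -3.24 and -3.78 in the treated arrays. Control 7 alone stood high, and the change was -0.52 (SE 0.32, adjusted p = 0.682); a dimmer probe changed by 0.10. In the NRF2 list 0 of 16 were called by limma, and an unadjusted p under 0.05 was reached by 1 higher and 1 lower gene. Mt2, a metallothionein, changed by 0.76 (adjusted p = 0.556), and 0 of 10 genes of that list were called, with 2 at an unadjusted p under 0.05. Of 17 xenobiotic enzymes 0 were called by limma, 5 had an unadjusted p under 0.05 in the lower direction and 0 in the higher, and the median was -0.29. Cyp1a1, the classic target of the aryl hydrocarbon receptor, was well above background on 3 of 5 controls and on no treated array. It changed by -0.50, which did not pass the test (adjusted p = 0.523). Control 30 at 2.31 stood above the other controls at 0.25 to 0.74, and the treated arrays lay at 0.16 to 0.46.

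Cell type markers were measured beside these results, and their part in them was not tested. By limma 0 members of the 17 marker lists were called. The neutrophil list had 6 of 19 genes at an unadjusted p under 0.05, all higher (6.32% of all features), among them Clec4d at 0.72. S100a8 and S100a9 changed by 0.59 and 0.61, while 5 of the 19 had changes below 0, down to -0.55. The list's median change was 0.20. Its distance from the control mean was -0.39 to 0.36 in the controls and -0.22 to 0.68 in the treated arrays. The monocyte and interstitial macrophage list had 5 of 16 higher at that p, against the same 6.32%. Its largest change was that of Cd14, at 1.03 (adjusted p = 0.0614). Changes below 0 were found in 4 of the 16, down to -0.36, and the median of this list was 0.31. By array it lay at -0.16 to 0.05 in the controls and at 0.08 to 0.55 in the treated arrays. These ranges did not overlap. Alveolar macrophage markers had a median change of -0.01 and alveolar type 2 markers of 0.12. Club and ciliated markers had median changes of -0.38 and -0.27, with 1 of 10 and 2 of 11 at an unadjusted p under 0.05 in the lower direction (3.06% of all features). Their array ranges overlapped, at -0.25 to 0.26 in controls and -0.66 to 0.25 in treated arrays for club markers and at -0.30 to 0.15 and -0.70 to 0.13 for ciliated markers. The T and NK cell and B cell lists had 0 members at an unadjusted p under 0.05.

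The other lists had 0 called members by limma. Alternative macrophage activation genes had changes above 0 in 13 of 13, a median of 0.51 and 5 at an unadjusted p under 0.05, all higher. The 15 genes of MHC class I presentation, which shows peptides to T cells, also all had changes above 0, with a median of 0.17 and 3 at that p. Of 18 circadian clock genes 2 higher and 1 lower reached it, against 6.32% and 3.06% of all features, and the median was -0.08. Among markers, medians were -0.11 in alveolar type 1 cells, -0.02 in endothelium, -0.08 in fibroblasts and smooth muscle, 0.10 in eosinophils and mast cells, -0.09 in red cells, -0.02 in platelets and -0.11 in lymph node and thymus. Cardiac muscle markers had a median of -0.44 with 0 of 12 at an unadjusted p under 0.05, and adipose markers -0.38 with 1 of 9, which was lower.

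At 18 µg of the same material 0 features were called against control by limma, with 710 at an unadjusted p under 0.05 (2.78%; 1.62% above and 1.16% below the controls). The direct test of 54 against 18 µg also called 0, with 974 at an unadjusted p under 0.05 (3.81%). Group means show the doses side by side: Saa3 lay at -2.57 ± 2.20 in controls, -0.98 ± 1.07 at 18 µg and 2.19 ± 1.92 at 54 µg (SD, n = 5 each). Ccl7 lay at -3.70 ± 0.83, -2.88 ± 0.84 and -1.27 ± 0.61, and Cyp7b1 at 2.12 ± 0.49, 2.55 ± 0.19 and 3.63 ± 0.26. Between the doses Ccl7 differed by 1.60 (95% interval 0.78 to 2.43, adjusted p = 0.962) and Saa1 by 2.29 (1.09 to 3.49, adjusted p = 0.962). Bbc3 differed by -0.07 (-0.31 to 0.17). The 54 µg group is common to these tests and the comparison with control.

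Against the other materials at 54 µg the tests did not involve the controls. NRCWE-045 and NRCWE-044 differed in 0 features by limma, with 1542 at an unadjusted p under 0.05 (6.04%; 3.36% higher and 2.68% lower with NRCWE-045), and NRCWE-045 and NRCWE-043 in 1378 (5.4%), of which 993 were higher with NRCWE-045 (3.89%) and 385 lower (1.51%). At an unadjusted p under 0.05 these shares were 9.15% and 6.37%. Of the 91 genes named by rule, 3 were called against NRCWE-043. Hmox1 was lower with NRCWE-045 by 3.23 on the log2 scale (difference -3.23, 95% interval -3.87 to -2.59, adjusted p = 6.56e-08), at -3.72 ± 0.31 against -0.49 ± 0.29 (SD, n = 5 each). Aldh1a1, a retinal dehydrogenase of club cells, was higher by 0.87 (0.42 to 1.33, adjusted p = 0.0128), and Clec4d, a myeloid lectin receptor, differed by -0.75 (-1.22 to -0.28, adjusted p = 0.0471). Of the 83 features called against control, 2 were called against NRCWE-043, both without a symbol.

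The inflammatory genes that led the comparison with control were not called between materials. Saa3 was at 4.46 ± 1.01 with NRCWE-044 and 4.22 ± 0.79 with NRCWE-043, and NRCWE-045 differed from them by -2.27 (-4.29 to -0.24, adjusted p = 0.737) and -2.03 (-4.05 to -0.01, adjusted p = 0.32). Cxcl10 differed by -1.11 (-2.06 to -0.16) and -1.04 (-1.99 to -0.09). Cfb differed from NRCWE-044 by -0.56 (-0.90 to -0.22, adjusted p = 0.374). Differences were smaller for Ch25h, at -0.03 (-0.58 to 0.51) and 0.02 (-0.52 to 0.57), and for Idi1, at -0.05 (-0.31 to 0.22) and -0.15 (-0.42 to 0.11). A p that misses the threshold does not show that the materials act alike.

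**Figure D5:**
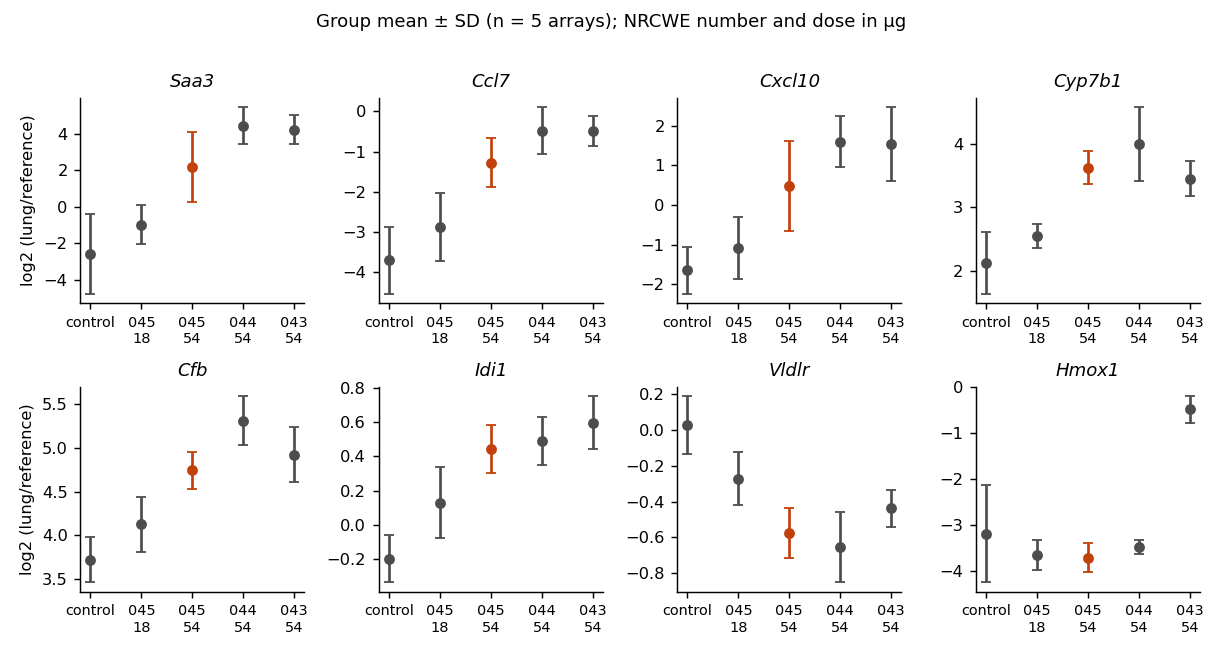
Group means ± SD (n = 5 arrays) of 8 genes as log2 ratios to the reference, for control, NRCWE-045 at 18 and 54 µg (the latter in orange), NRCWE-044 at 54 µg and NRCWE-043 at 54 µg. Hmox1 is high with NRCWE-043 alone, at -0.49, while Idi1 and Vldlr are at similar means with all 3 materials at 54 µg.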

How the data were processed

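Lung RNA on 10 arrays, 5 of NRCWE-045 at 54 µg and 5 controls, was compared within the fit of all 35 arrays in 7 groups. Spot intensities were extracted with Agilent Feature Extraction 11.0.1.1, per the file headers, with lung RNA in Cy5 and a universal reference RNA in Cy3 on every array, per the labels. The series values deposited by the authors are log2 ratios. Their normalization was not given in the sources used here. They correlated at 0.993 to 0.999 with the values used here and served as an alternative.

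Median intensities were corrected with normexp (offset 50) and normalized with loess within arrays in limma 3.58.1 under R 4.3.3. Control spots had no weight and spots marked as outliers were dropped, which left 656 feature values missing. A probe was tested if some group had 3 or more of its 5 arrays well above background in Cy5, and the brightest probe stood for a gene; 3885 genes had more than 1 tested probe. Symbols came from the RefSeq annotation of GRCm38.p6 through accessions (27235 of 55681 probes matched); 25534 features were tested, 15621 with a symbol. Linear models with eBayes gave changes, SE and p-values, adjusted by the Benjamini-Hochberg method over all features in each of 5 comparisons. Bounds ("at least") compare the brighter group with the lowest signal well above background on the dim arrays.

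The rule for named genes gave 91: the 10 largest changes in each direction among called genes with all 5 treated arrays on 1 side of the control mean, up to 4 called members of each of 38 gene lists or else the 2 of smallest p, and genes known from earlier results. The members and lists were chosen with earlier results of these data known. Of 578 list entries, 535 were tested. Figures and promoter searches used Python. On simulated data with known changes in this comparison, over 25534 features with 50 genes for each size, the procedure recovered 58% of changes of 0.5 and 100% of changes of 1, 1.5 and 2, with 12 false calls. The simulated noise was independent between arrays and between features, with no slide effect and no array lying near the other group. These rates therefore do not carry over to the measured arrays, where Ccl24 at 2.49 and Saa1 at 2.27 were not called. Alternatives in background correction, normalization, filter, probe choice, slide, arrays and fit were run; 2 were added after seeing the data. Some named genes are not reported here.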

Additional observations from a re-analysis of the deposited data

Results flagged for a closer look

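Within a group of 5 arrays, an array was marked where its gap to the nearest other exceeded 0.71 of the group's range. Over 91 genes and 38 lists, 258 groups were checked and 18 were marked; chance marks about 1 in 20. Control 29 was the high array for Saa3 (1.31), Timp1 (-0.22), Ccl7 (-2.25), Cyp7b1 (2.97), Ly6f (2.09), Ly6i (2.33) and Pdpn (2.44). Treated 35 was the low array for Pdpn (2.01), Ddx58 (0.69), Lamp3 (3.07) and the cell cycle list score (-0.29). Among the other treated arrays, treated 32 was low for Arntl (-2.12) and high for Tnnt2 (1.76), treated 28 was low for Atf3 (-0.67), treated 8 was low for Hba-a1 (5.82) and treated 14 was high for Trib3 (-2.78). Control 30 was high for Cyp1a1 (2.31) and Cyp2f2 (7.35).

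Between materials at 54 µg, the direct test of NRCWE-045 against NRCWE-043 in limma was past the threshold for Hmox1 (-3.23, adjusted p = 6.56e-08), Aldh1a1 (0.87, adjusted p = 0.0128) and Clec4d (-0.75, adjusted p = 0.0471), with 5 arrays per group.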

How the results depend on the processing

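Of the 83 calls against control, the number became 207 with the scanner's processed signals (71 shared), 0 with median centring in place of loess (488 at an unadjusted p under 0.05), 50 with scale normalization, 158 and 273 with slide as a fixed or random block, 32 with only the 10 arrays, 343 with array weights and 50 with a 1.5-fold minimum. It was 0 to 221 when 1 array was left out. A pair of choices made after seeing the data gave 300 without control 29 and treated 35 and 100 without controls 7 and 29; those arrays were picked from their values, so the counts are no support. The share of calls that were higher was 89.2%, against 79.7 and 81.7% with slide blocks, 82.5% with array weights and 92.1% with trend and robust eBayes. The cause of these shifts was not tested, and the smaller fits also had fewer arrays. NRCWE-045 at 54 against 18 µg gave 3 calls with only the arrays of those groups and 0 in the other settings. Against NRCWE-044 the 0 calls became 5 with no background correction, 8 with processed signals, 8 with the deposited values, 8 with a filter of 5 arrays, 1 with probe means, 5 and 17 with slide blocks, 33 with only those groups, 63 with array weights, and 0 to 12 when 1 array was left out. Against NRCWE-043 the 1378 became 529 with median centring, 2097 with array weights, 748 with a 1.5-fold minimum and 909 to 1368 when 1 array was left out.

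The 29 named genes called against control kept their direction in all 26 settings; Ccl7 and Cfb were called in 21 of them and Mvd in 11. Directions turned only for uncalled genes: the change of Cidec was 0.057 with processed signals, the change of Hba-a2 0.12 and the change of Scgb1a1 0.018 with median centring, the change of Ryr2 0.0050 without control 29 and treated 35 and the change of Treml1 0.0033 without controls 7 and 29. Leaving out 1 array moved the change of Dbp from -0.41 to 0.93 and the change of Hba-a2 from -0.28 to 0.082. Median centring moved the median of all features by 0.12 between the doses. No paired analysis was possible because the groups share no replicate numbers; pairing here means by number, and slides 1, 3, 5 and 6, which held both groups, entered as the slide blocks above. Signal over background limits Kcnk2, Cyp1a1 and Ptcra, which were not well above it on the treated arrays. It also limits Il6 and Cxcl5, which were well above it on 1 and 2 of the 5 controls.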
